A study of Mus musculus with 2 samples.

Results

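Among the annotated mouse transcripts of 6 kb or longer that have at least 2 exons, 662 had their whole chain of introns matched by 3 or more long reads in gastrocnemius muscle. They were chosen by their reads: spike-in sequences were left out, the reads of both libraries were summed, and a transcript with fewer than 3 reads was not kept. These 662 transcripts, of 620 genes, stood among 18667 annotated transcripts with reads and among 1040 spliced annotated transcripts of 6 kb or longer with at least 1 read. The annotation itself, GENCODE M21, lists 4081 spliced transcripts of that length. Just outside the rule lay 135 long transcripts with exactly 2 reads and 243 with exactly 1, and just inside it lay 87 with exactly 3 and 69 with exactly 4. On the side of length, 34 transcripts lay less than 100 nt below the minimum with 3 or more reads and held 9383 reads, and the 32 members less than 100 nt above it held 7453.

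The tissue was gastrocnemius, a calf muscle made mainly of fast fibres, taken at 2 months of age. The donors were male B6CASTF1/J mice, that is F1 hybrids between C57BL/6J and CAST/EiJ. There was 1 group with 2 libraries, replicate 2 and replicate 1, each from 2 µg of RNA and each with spike-in RNAs, and no condition was compared with another. The labels number the males differently but give both the same donor identifier, so the spread between the libraries may be partly technical. Annotated genes held 1402875 reads in replicate 2 and 1107128 reads in replicate 1. All 10 preset muscle fibre markers were detected, with a summed level of 321257 reads per 1000000 reads of annotated genes (CPM) in replicate 2 and 351850 CPM in replicate 1. Marker sums of other cell types ranged from 32.1 to 696 CPM in replicate 2 and from 34.3 to 618 CPM in replicate 1, the macrophage marker Cd68 being at 0 in both.

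In long-read sequencing of RNA, a reverse-transcribed molecule is read from end to end, so a single read can show every splice junction of a transcript. Copying starts at the poly(A) tail, and a molecule that is cut short or copied in part keeps its 3′ side and loses junctions from the 5′ side. Muscle makes some of the longest messenger RNAs of the body, for the giant proteins of the sarcomere and for the channels that couple excitation to contraction. A messenger RNA can also be long for another reason, a long 3′ untranslated region, which is usually a single exon that carries binding sites for regulatory proteins and microRNAs.

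A complete chain is a weaker statement than a complete molecule, and the sequences at issue lie in 2 places. In the myosin heavy chain genes the last junction falls inside the coding sequence, so reading the whole chain means reading nearly the whole protein-coding message. Lower case shows the 30 bases before that junction and capitals the first 21 bases of the last exon (GENCODE M21 transcripts, mm10, transcript strand). The windows show how alike the fast genes are at this junction, on the 3′ side where truncated reads lie. In the slow gene Myh7 the last junction falls at another place in the coding sequence, so its window is not aligned to theirs.
Myh1-203 (chromosome 11, plus strand): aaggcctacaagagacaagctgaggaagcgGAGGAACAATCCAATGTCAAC
Myh4-201 (chromosome 11, plus strand): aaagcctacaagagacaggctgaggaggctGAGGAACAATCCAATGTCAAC
Myh2-203 (chromosome 11, plus strand): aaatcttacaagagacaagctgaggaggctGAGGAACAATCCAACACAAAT
Myh7-201 (chromosome 14, minus strand): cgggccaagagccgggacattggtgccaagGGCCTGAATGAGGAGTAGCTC

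Over these 51 bases Myh1-203 and Myh4-201 were 92.2% identical, Myh1-203 and Myh2-203 80.4%, and Myh1-203 and Myh7-201 31.4%. The last exon held 150 coding bases before the stop codon in Myh1-203, Myh4-201 and Myh2-203, and 15 in Myh7-201. The 31.4% therefore compares different parts of the coding sequence and does not measure how alike Myh1 and Myh7 are. Reads of the neighbouring fast genes could be split between them by the authors' assignment, which was not tested, and their values are uncertain to that extent. A window of 51 bases does not show how alike the genes are over a whole read.

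In most other members the last junction is followed by a last exon of several kb, and a read can match the whole chain without reaching the annotated 3′ end. The second set shows where other spliced models of the same genes, ending on the same last exon, stopped most often before its last 10%. Each line gives 30 bases on the transcript strand, from M21 transcripts on mm10. In the first 5, the 30 bases end at the model's end and the capitals mark a poly(A) signal, AATAAA or ATTAAA.
Ppp2ca-201 (chr11:52122582-52122611, plus strand): agtgttttcatAATAAActtgagaactgag
Pnpla8-201 (chr12:44312063-44312092, plus strand): gattttctttATTAAAgtacatttatgttt
Ppm1a-201 (chr12:72794535-72794564, plus strand): tcAATAAAgcttggtttaacaaacaagaca
Cdc37-201 (chr9:21139428-21139457, minus strand): gtccAATAAAcagttccaggtgctggaggc
Tbc1d17-201 (chr7:44841032-44841061, minus strand): attgtgaggcAATAAAccgttcttggttga

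In the next line the model ends after the lower-case bases, and the capitals mark the 20 bases that follow the end in the annotated exon, which are rich in A.
Usp13-201 (chr3:32933277-32933306, plus strand): ttgccaaaaaAGAAAAAGAAGAAAAAAAGA

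The 662 transcripts fell into 2 main kinds by exon make-up. In 410 of them (61.9%) the last exon made up at least 50% of the annotated length, and these held 20014 of the summed reads (53.3%). In 219 (33.1%) the internal exons, those between the first and the last junction, made up at least 50%, and these held 15300 reads. The other 33 met neither condition. Members made mainly of internal exons held 40.8% of the reads, and 18.6% (5093 reads of 213 members) without the 4 myosin genes Myh1, Myh2, Myh4 and Myh7.

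Annotated length had a median of 7053 nt and ran between 6002 and 123179 nt. The summed length of internal exons, which is the least that a read must cover to match a whole chain and is called the span below, had a median of 2342 nt and ran between 0 and 10635 nt. A span under 1000 nt was found for 160 members, a span of 4000 nt or more for 183 and a span of 6000 nt or more for 64, which held 1141 reads. The median member had 16 exons, a last exon of 4522.5 nt and 10 summed reads. Of the 657 coding members, the median coding sequence was 931 codons and the median 3′ untranslated region made up 57.7% of the annotated length.

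**Figure D1:**
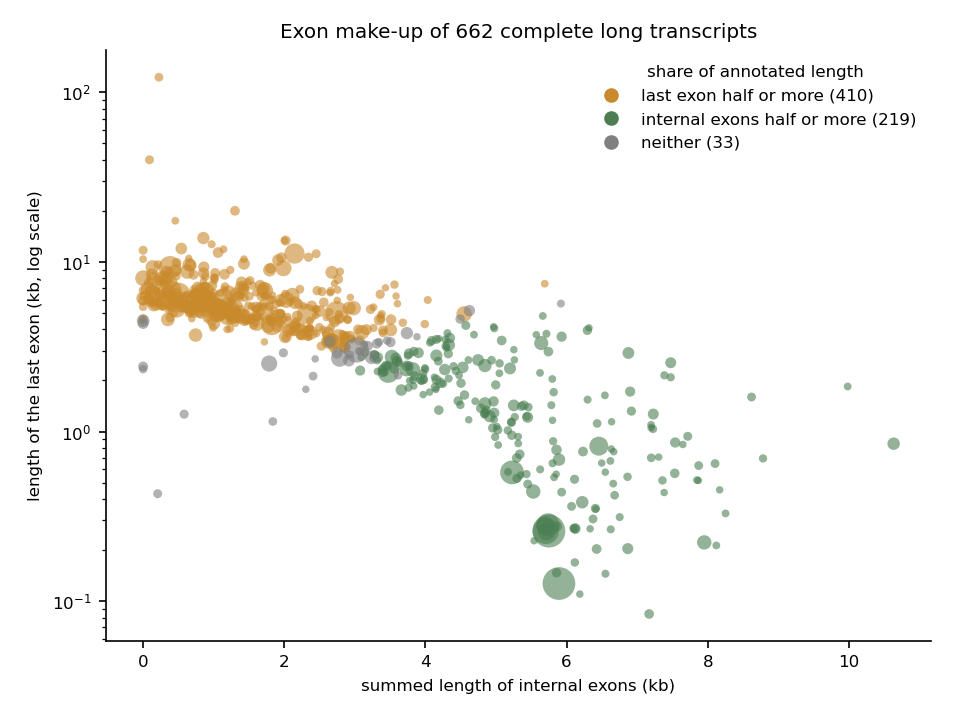
Summed length of internal exons (kb) against the length of the last exon (kb, log scale) for the 662 transcripts, with point area growing with summed reads and colours for the 2 kinds and for those of neither. The 410 transcripts dominated by their last exon lie at the upper left, and the large points at the lower right are the myosin heavy chain transcripts.

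The extremes of length and of span were different transcripts. The longest, D10Wsu102e-201 (chr10:83360221-83488505, mm10, plus strand), is annotated at 123179 nt, but 122802 nt of it is the last exon and its span is 224 nt. It had 5 reads in replicate 2 and 4 in replicate 1. D1Ertd622e-201 (40378 nt), Hnrnpr-207 (21452 nt; a nuclear RNA-binding protein) and Ahnak-202 (18100 nt) followed, with 2 and 8, 10 and 6, and 3 and 1 reads in replicates 2 and 1. Ahnak encodes a giant scaffold protein and is the member with the longest coding sequence, 5656 codons, nearly all of it in its last exon of 17498 nt.

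Transcripts with the longest spans encode very large proteins. Cmya5-201, for myospryn of the muscle costamere and Z-disc (chr13:93040713-93144724, minus strand), had a span of 10635 nt and was read completely by 25 reads in replicate 2 and 30 in replicate 1. Xirp2-202, for an actin-binding repeat protein of cell junctions and Z-discs, had a span of 9983 nt and 1 and 3 reads. Myo18b-201, an unconventional myosin needed for sarcomere assembly, had a span of 7951 nt and 74 and 36 reads. Among the 10 longest spans, Myo18b-201 and Cmya5-201 had over 50 summed reads each, and the other 8 had between 3 and 9.

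Complete chains with the most exons were also few in reads. Usp24-201, a deubiquitinating enzyme with 68 exons, had 21 reads in replicate 2 and 9 in replicate 1. The fibrillar collagen transcripts Col5a3-201 (67 exons) and Col5a1-201 (66 exons) had 3 and 3 and 1 and 2 reads, and Col22a1-201 (64 exons), a collagen of tissue junctions such as that of muscle and tendon, had 2 and 2. Mtor-202, the kinase of growth control, with 58 exons, and Tln1-201, the integrin-binding talin, with 57, had 2 and 1 and 8 and 6 reads.

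Reads were concentrated in few members. The members held 25197 reads in replicate 2 and 12321 in replicate 1. The leading 5 held 29.2% of the summed member reads, the leading 20 held 53.6% and the leading 50 held 68.6%. At the other end, 318 members had fewer than 10 summed reads, 3 had no read in replicate 2 and 49 had none in replicate 1. Where no read was counted, counting error alone allows as many as 3 reads, which is 2.14 CPM for replicate 2 and 2.71 CPM for replicate 1.

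**Figure D2:**
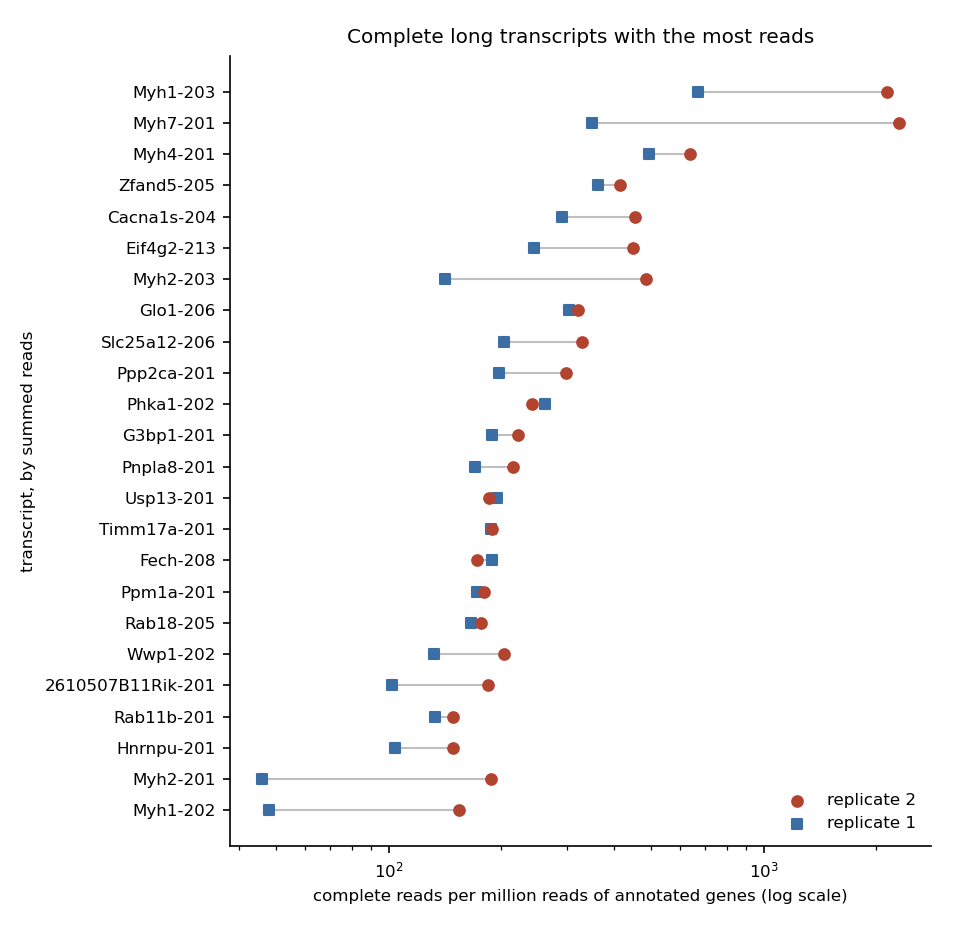
Complete reads per 1000000 reads of annotated genes (log scale) of 24 of the 25 members with the most reads, with a circle for replicate 2, a square for replicate 1 and a line joining them. Myh7-201 and the Myh1 and Myh2 transcripts are farthest apart, with replicate 2 above replicate 1, and Timm17a-201 is closest, at 188.9 and 187.9 CPM.

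Myosin heavy chain genes, which encode the motor of the thick filament and define fibre types, supplied the most complete reads. Myh1-203, of the type IIX gene (chr11:67200052-67224575, plus strand, 40 exons, 6081 nt, span 5749 nt), had 2987 reads in replicate 2 and 742 in replicate 1. Myh7-201, of the slow type I gene (chr14:54970684-54994626, minus strand, 41 exons, 6135 nt, span 5892 nt), had 3229 and 385. Together the 6 members of Myh1, Myh2, Myh4 and Myh7 held 32.8% of member reads in replicate 2 and 15.7% in replicate 1.

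The share of a gene's reads held by its most read complete transcript of 6 kb or longer differed widely among these 4 genes. Myh7-201 held 81.1% of Myh7 reads in replicate 2 and 69.1% in replicate 1, and Myh1-203 held 55.7% and 54.2% of Myh1 reads. Myh2-203, of the type IIA gene, held 34.1% and 31.3%. Myh4-201, of the type IIB gene that leads in this muscle, had 894 and 547 reads, 3.45% and 3.32% of 25951 and 16494 Myh4 reads, so its share was the lowest of the 4 genes in both libraries.

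Most other Myh4 reads lay in models that the length or the chain kept out. A 40-exon chain with an unannotated splice site, 6340 nt long, held 8182 reads in replicate 2 and 5392 in replicate 1. It shared 38 of its 39 introns with Myh4-201, which has 38. Myh4-202 is annotated and was complete in 4270 and 1848 reads, but its 5912 nt put it just under the minimum. The same happened to Myh1-201, annotated at 5938 nt, with 519 and 117 reads. Annotated Myh4 transcripts of any length held 17.8% of the gene's summed reads, so the low share of Myh4-201 is not the share of complete reads. Incomplete matches of Myh4, in which only part of the annotated chain was read, made up 47.3% of its reads, and the most read of them had 3 exons, with 3630 and 565 reads.

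Transcripts of excitation and calcium coupling differed widely in complete reads. Cacna1s-204, of the voltage sensor of the L-type calcium channel in the transverse tubule (chr1:136052750-136119530, plus strand, 44 exons, span 5227 nt), had 638 reads in replicate 2 and 321 in replicate 1, or 67.7% and 58.7% of its gene's reads. Scn4a-201, of the muscle sodium channel, had 4 and 1 reads, and 2.02% of 248 gene reads. The ryanodine receptor gene Ryr1, whose shortest coding transcript has 15300 nt and a span of 14955 nt, had no complete read of a coding transcript of 6 kb or longer among 1135 and 949 gene reads.

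Many leading members were short proteins behind a long last exon. Zfand5-205, of a zinc finger protein linked to the proteasome (chr19:21272278-21286840, plus strand, 213 codons, last exon 6418 nt), had 581 reads in replicate 2 and 400 in replicate 1, which were 91.6% and 88.1% of its gene's reads. Glo1-206, of the glyoxalase that detoxifies methylglyoxal, had 448 and 336 reads with a span of 382 nt and a last exon of 9291 nt. Ppp2ca-201, of a catalytic subunit of protein phosphatase 2A, had 417 and 218 reads. The small GTPase transcripts Rab18-205 and Rab11b-201 had 247 and 184, and 209 and 147. The mitochondrial import transcript Timm17a-201, 171 codons with a span of 404 nt, had 265 and 208.

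The smallest coding sequences among members lay in the same kind of transcript. Tmem167-203 codes for 72 amino acids in 8689 nt and had 67 reads in replicate 2 and 40 in replicate 1, while Lyrm9-203 codes for 78 in 8035 nt and had 12 and 7. Ccdc167-203 (104 codons), 1700025G04Rik-201 (121 codons) and Rbbp6-203 (123 codons) had 1 and 3, 36 and 22, and 12 and 9 reads. By annotated type, 657 members were protein-coding, 2 were retained-intron transcripts, and the lincRNA, nonsense-mediated decay and processed-transcript types had 1 each. The lincRNA, 1700020I14Rik-202 (8300 nt, 3 exons), had 112 and 44 reads, 41.5% and 35.5% of its gene's reads.

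Larger metabolic and signalling proteins made up a further group. Slc25a12-206, the mitochondrial aspartate and glutamate carrier, had 459 reads in replicate 2 and 225 in replicate 1, and Eif4g2-213, a translation initiation factor of the eIF4G family, had 630 and 270. Phka1-202, the regulatory alpha subunit of muscle phosphorylase kinase on chromosome X (33 exons), had 339 and 289. Those were 42.4% and 51.2% of Phka1 reads, and a second annotated transcript, Phka1-201, with 5938 nt and thus outside the rule, had 251 and 139.

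Ubiquitin ligases and deubiquitinating enzymes included Usp13-201 with 260 reads in replicate 2 and 215 in replicate 1, Wwp1-202 with 285 and 146, and Fbxo32-201 with 92 and 100. Fbxo32 encodes atrogin-1, the muscle ligase known for its part in atrophy, and its complete transcript held 69.7% and 76.9% of the gene's reads. Among regulators of insulin and energy signalling, Prkaa2-201 (the alpha 2 subunit of AMP-activated kinase) had 69 and 30, Ppp1r3a-201 (the glycogen-targeting subunit of phosphatase 1) 65 and 26, Irs1-201 (the insulin receptor substrate) 36 and 23, and Foxo1-201 17 and 23. Irs1-201 and Synpo2-201 (88 and 79 reads; a Z-disc actin-binding protein) have 2 exons and so no internal exon, and for them a complete chain is a single junction.

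Nuclear and RNA-binding proteins and transcription regulators gave members of both kinds. Hnrnpu-201, a nuclear matrix RNA-binding protein, had 208 reads in replicate 2 and 115 in replicate 1, and Ncl-201, the nucleolar protein nucleolin, had 99 and 90. Nfib-202, a transcription factor, had 33 and 44, and Ncoa1-201, a coactivator of nuclear receptors, had 29 and 9. Ppargc1a-203, which encodes the regulator of mitochondrial genes PGC-1 alpha, had 11 and 3, and Qk-204, the splicing regulator quaking, had 34 and 18, or 10.1% of 517 gene reads. Mef2c-201, a muscle transcription factor, had 10 and 5, or 4.17% of 360 gene reads.

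Across genes, complete long transcripts held a little under 50% of the reads at the median. Over the 418 member genes with 20 or more summed reads, the median share was 45.4% in replicate 2 and 40.0% in replicate 1, a mean of 42.7% ± 3.83 (SD, n = 2 libraries). In the 244 genes with 50 or more reads, the members held at least 80% of the reads in 39 genes (16.0%), at least 50% in 114 (46.7%) and under 10% in 40 (16.4%). With the reads of the 244 genes pooled, members held 31.7%, incomplete matches 32.1%, chains with an unannotated splice site 15.9%, other annotated transcripts 10.9%, unannotated chains of annotated sites 4.78% and genomic reads, which match no junction of the gene, 4.67%. The pooled values lean on Myh4, which had 42445 reads, 47.3% of them incomplete matches and 33.2% chains with an unannotated splice site. The medians over the 244 genes were 12.2% for incomplete matches and 3.97% for chains with an unannotated splice site. They were 2.52% for unannotated chains of annotated sites and 6.26% for genomic reads. Because members were chosen by reads, these shares are a description.

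**Figure D3:**
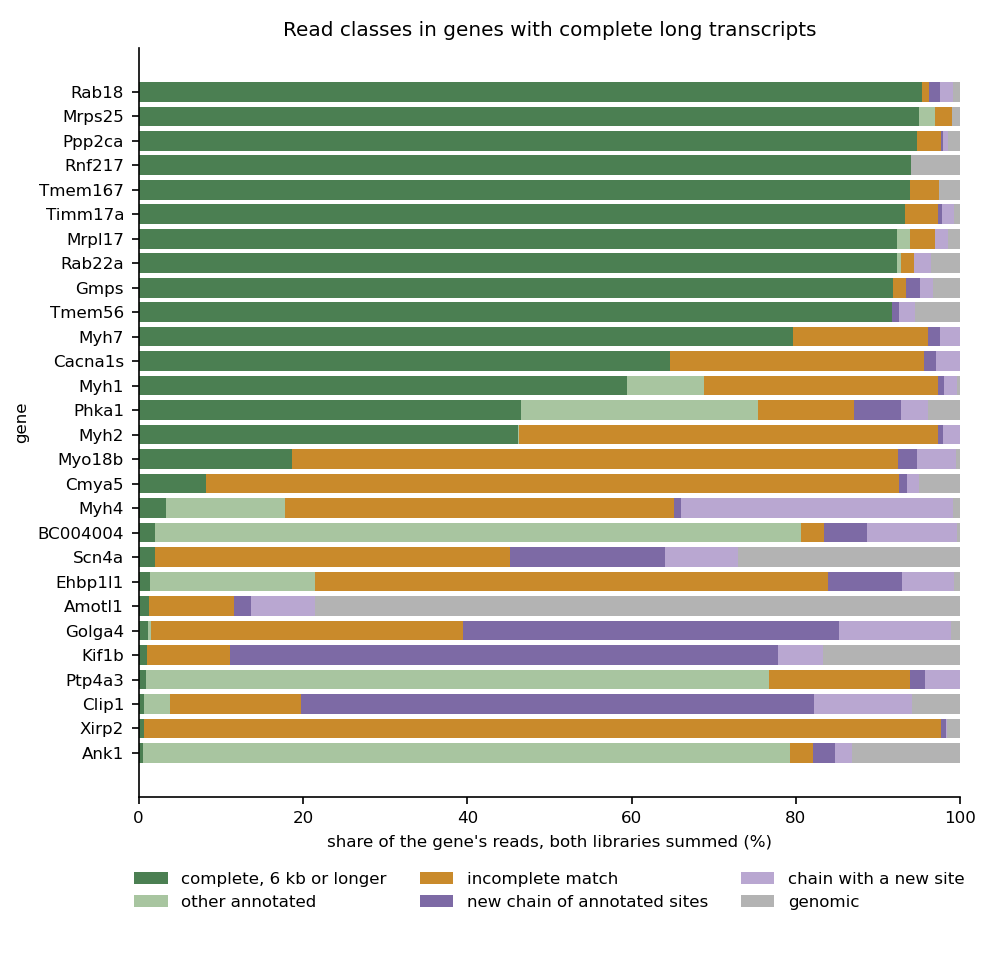
Share of each gene's summed reads (%) by read class, as stacked bars, for the 10 genes with the highest and the 10 with the lowest share among genes with 50 or more reads, and between them 8 muscle genes. Bars of Rab18 and Ppp2ca are almost filled by the complete long transcript, Xirp2 and Cmya5 by incomplete matches, Ank1 and Ptp4a3 by other annotated transcripts, and Kif1b and Clip1 by new chains of annotated sites.

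Genes at the top of the order were read almost wholly as 1 complete chain. Rab18 reached 97.2% in replicate 2 and 92.9% in replicate 1, Mrps25 (a mitochondrial ribosomal protein) 92.7% and 97.7%, Ppp2ca 93.9% and 96.5%, and Rnf217 94.1% and 93.8%. Tmem167, Timm17a, Mrpl17, Rab22a, Gmps and Tmem56 followed, with summed shares between 91.7% and 93.9%. Their Wilson 95% intervals overlapped, so the order within these 10 was not resolved: that of Rab18 ran from 93.0% to 96.9% and that of Tmem56 from 84.9% to 95.5%. Of the 10, Gmps, a nucleotide synthesis enzyme, had the longest span, 1953 nt.

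At the bottom, what took the place of the complete chain differed from gene to gene. Xirp2-202 held 0.624% of 641 reads, where incomplete matches made up 97.0%. The most read spliced incomplete match had 3 exons but a model length of 11242 nt, beside 11979 nt for Xirp2-202. It had 142 reads in replicate 2 and 95 in replicate 1. In Cmya5 an incomplete match with 11 of the 12 introns, lacking 1 junction, held 236 and 174 reads, against 25 and 30 for the complete chain. The model of that match was 3187 nt long, beside 11850 nt for Cmya5-201, so it lacked most of the annotated length.

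Ank1 reads were mostly annotated but shorter. Ank1-207, which encodes a full-length ankyrin, held 0.503% of 796 reads with 4 reads in replicate 2 and none in replicate 1, while other annotated transcripts held 78.8%. Muscle is known to make a small ankyrin of the sarcoplasmic reticulum from this gene. Ptp4a3-205, a processed transcript without a coding sequence, held 0.883% of 1132 reads, and other annotated transcripts of this phosphatase gene held 75.9%. In Kif1b, a kinesin gene, and Clip1, a microtubule plus-end protein gene, new chains of annotated sites held 66.7% and 62.5%, beside members at 1.07% and 0.713%. In Amotl1, genomic reads held 78.5%.

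The share of a gene's reads was lower at longer span, with no such order along the annotated length. Among members in genes with 50 or more reads, the median share was 73.3% for spans under 1000 nt (67 transcripts), 59.8% from 1000 to 2000 nt (53), 33.2% from 2000 to 4000 nt (72), 12.5% from 4000 to 6000 nt (49) and 13.6% at 6000 nt or more (33). The median share of incomplete matches in the same genes was 2.86%, 5.83%, 14.8%, 28.4% and 60.9% along the same bins. By annotated length the medians were 34.7% from 6000 to 7000 nt (135 transcripts), 37.7% to 8000 nt (58), 31.3% to 10000 nt (58) and 22.9% at 10000 nt or more (23). Across these 274 transcripts, which share libraries and in part genes, Spearman's rank correlation of the share was -0.50 with span and 0.03 with length. With the length of the last exon it was 0.47 and with exon number -0.34. Span and exon number were themselves correlated at 0.84, so their parts cannot be told apart here.

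**Figure D4:**
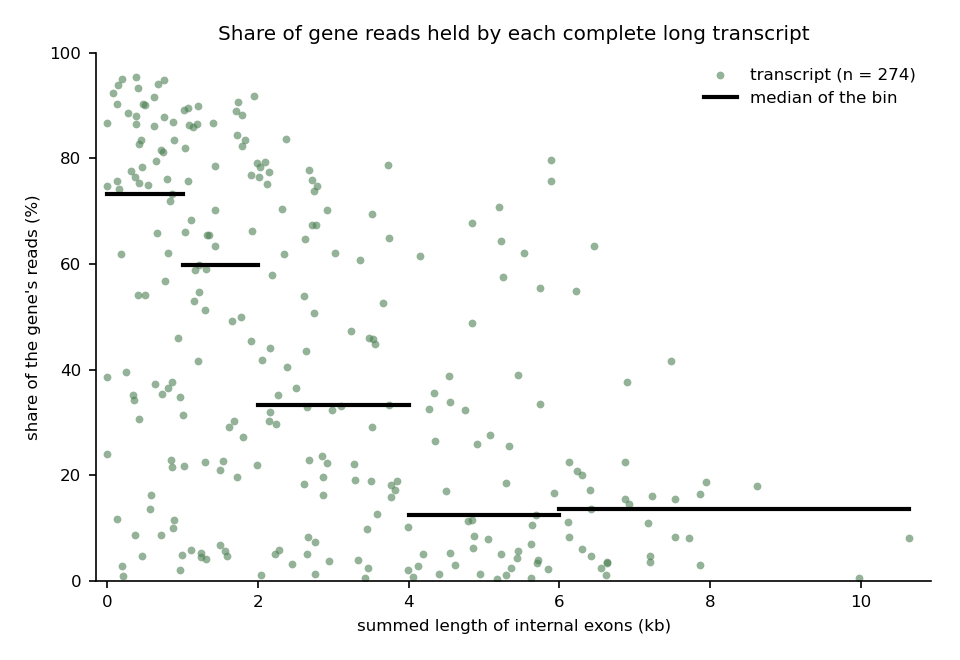
Share of the gene's reads (%) held by each of 274 members in genes with 50 or more summed reads, against the summed length of internal exons (kb), with black bars at the median of each bin. Points above 60% are common under 2 kb and few past 4 kb, where Myh7-201, Cacna1s-204 and 2610507B11Rik-201 are among them.

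Some transcripts stood well above others of like span. With a span of 6457 nt, 2610507B11Rik-201 (39 exons, 2234 codons) had 259 reads in replicate 2 and 113 in replicate 1, 64.1% and 62.1% of its gene's reads. Snrnp200, whose protein is a helicase of the spliceosome, had 56.4% and 53.2% from a shortest coding transcript with a span of 6222 nt. Usp24 had 40.4% and 45.0%, and Igf2r, the receptor that takes up insulin-like growth factor 2, had 38.5% and 35.7%. Flnc, the muscle filamin, with a span of 7539 nt, had 8.63% and 7.89%.

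The same order appeared where a gene offers no short coding transcript. In 71 genes with 50 or more reads, every annotated coding transcript had 6 kb or more. Their median share of complete reads was 74.7% for spans under 1000 nt (21 genes), 73.0% from 1000 to 2000 nt (18), 50.8% to 4000 nt (11), 25.8% to 6000 nt (5) and 16.1% at 6000 nt or more (16). These values do not depend on the minimum of 3 reads, and 3 of the 71 genes had no complete read of a coding transcript, Ryr1 and Pcnt among them. Spearman's rank correlation of the share was -0.59 with span and -0.15 with length.

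The fraction of annotated transcripts that were found at all followed the span too. Of 559 coding transcripts of 6 kb or longer in genes with 50 or more reads, 270 (48.3%, Wilson interval 44.2 to 52.4) had 3 or more complete reads. Along the bins of span the percentages were 81.0, 60.2, 49.3 and 42.1 up to 6000 nt, and 33 of 132 were found at 6000 nt or more. By annotated length they were 51.4 from 6000 to 7000 nt, 51.8 to 8000 nt and 47.1 to 10000 nt. At 10000 nt or more, 23 of 69 (33.3%) were found, so the fraction was also lowest at the greatest length. Coding transcripts of 3 to 6 kb in the same kind of gene were found in 62.0% of 2756 cases, and by span in 72.1%, 67.7%, 51.7% and 34.1% over the 4 bins up to 6000 nt. Over all 13339 coding transcripts under 6 kb in such genes 40.3% were found, and by span 34.2%, 57.1%, 48.0% and 34.1%, which followed no such order. An annotated transcript may not be made in this tissue, so an absent one is not a missed one.

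By gene group, most well-read long genes yielded a complete chain. The groups were chosen with earlier results of these data known and are described by counts. Over all 323 genes with a coding transcript of 6 kb or longer and 50 or more reads, 241 (74.6%) had a member. Of sarcomere and Z-disc genes, 10 of 13 had one, with a median share of 8.22% over the 10 beside 43.7% over all member genes with 50 or more reads, and of membrane skeleton genes 7 of 11, with a median share of 15.5%. Within the sarcomere group the shares were uneven, since Myh7, Myh1 and Myh2 stood at 79.6%, 59.4% and 46.1%. Median shares over the genes with a member were 18.3% for motors and traffic, 21.5% for RNA binding, 36.7% for transcription, 48.9% for matrix and vessels, 54.5% for ubiquitin and autophagy and 57.3% for kinases and phosphatases. The counts were 3 of 6 for calcium release and excitation, 6 of 10 for kinases and phosphatases, 6 of 8 for transcription, 6 of 8 for ubiquitin and autophagy, 5 of 9 for motors and traffic, 2 of 4 for RNA binding, 2 of 2 for energy metabolism, 3 of 3 for matrix and vessels and 0 of 1 for the circadian clock.

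Genes without a member included the giants of the sarcomere. Titin (Ttn, 390 reads in replicate 2 and 376 in replicate 1) and nebulin (Neb, 274 and 225) had no complete read of an annotated transcript of 6 kb or longer. Incomplete matches made up 58.6% and 68.9% of their reads. Speg, a kinase of the muscle triad, had 130 and 102 reads, 93.5% of them incomplete matches. Plec, which encodes the cytoskeletal linker plectin, had 425 and 222 reads and a single complete one, under the minimum.

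Other genes without a member were read in shorter annotated forms. Asph had 230 reads in replicate 2 and 195 in replicate 1, with 274 of the 425 on annotated transcripts, all under 6 kb, and its gene makes both an aspartate hydroxylase and the short junctional proteins of the muscle triad. Rora, a nuclear receptor of the clock, had 84 and 96 reads with 125 on shorter annotated transcripts. Pde4dip, a scaffold of the Golgi and centrosome also called myomegalin, had 1582 and 1031 reads, of which 2 matched any annotated transcript and 46.7% were incomplete matches.

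Membrane skeleton genes gave complete chains at low counts. Dysf, of the membrane repair protein dysferlin, had 2 members with 55 exons each, Dysf-204 with 17 reads in replicate 2 and 10 in replicate 1 and Dysf-202 with 5 and 5. Sptb-201, of the beta-spectrin of muscle and red cells, had 31 and 12, and Synm-201, of the intermediate filament protein synemin, had 26 and 21. Dmd, the dystrophin gene, had 23 summed gene reads and no complete one of 6 kb or longer.

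Genes of matrix and vessels were read completely as well, in a tissue sample where their cells are a minority. Col4a1-201 and Col4a2-201, the paired type IV collagen chains of basement membrane, had 45 and 22 and 24 and 22 reads in replicates 2 and 1, and Lamc1-201, a laminin chain, had 36 and 12. In bulk tissue, fewer cells of a type and less RNA per cell cannot be told apart.

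More than 1 long transcript was complete in 38 genes, with at most 4 per gene. Son, of a nuclear speckle protein, had 4 members, with 10 reads in replicate 2 and 5 in replicate 1 over all of them. Abcc9, the sulfonylurea receptor SUR2 of muscle potassium channels, had 3, led by Abcc9-204 with 25 and 18 reads, and Abcc9-202 had 13 and 2. Flna had 3 at 7 or fewer summed reads each. In 7 of the 38 genes the members had equal coding lengths: Myh1-203 and Myh1-202 both encode 1942 amino acids, as do Myh2-203 and Myh2-201, and in each pair the transcript with 1 more exon had more reads in both libraries. A whole intron chain was shared by 7 members and another annotated transcript, under 6 kb in 3 cases, and reads of those cannot be placed by junctions alone.

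Complete long transcripts took a larger share of replicate 2 than of replicate 1. They held 2.83% (Wilson interval 2.79 to 2.86) of annotated multi-exon reads in replicate 2 and 1.73% (1.70 to 1.76) in replicate 1. Among the 226 members with 20 or more summed reads, 45 (19.9%) were over 2-fold apart in CPM, 43 of them higher in replicate 2. Over all 5359 annotated multi-exon transcripts with as many reads, 7.95% were over 2-fold apart, 6.53% higher in replicate 2 and 1.42% higher in replicate 1. As log2 of replicate 2 over replicate 1, the median ratio was 0.37 for members and 0.11 for all. DESeq2 size factors moved both by a like amount, to 0.26 for members and 0.0031 for all. With 1 library against 1 other of the same group, no test was possible.

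This difference also followed the span. The 40 members with a span of 4000 nt or more had a median log2 ratio of 0.83, and 24 shorter annotated transcripts with such a span had one of 0.86. Members with a span under 1000 nt had one of 0.20 (72 transcripts). Without the 4 myosin genes the median was 0.35 and 40 members were over 2-fold apart. With replicate 2 thinned to the depth of replicate 1 the median was 0.44 over members. The slow-fibre gene Myh7 had 3982 reads in replicate 2 and 557 in replicate 1, and the part of fibre composition in the result was not tested.

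Among the 226 members with 20 or more summed reads, Myh7-201 was farthest apart, at a log2 ratio of 2.72, or 6.61-fold (counting interval 5.95 to 7.38). Uhrf1bp1l-201 followed with 20 reads in replicate 2 and 2 in replicate 1, then Pank1-201, of a coenzyme A synthesis enzyme, with 59 and 9, and Myh2-201 with 263 and 51. Top2b-201 had 29 and 6, Fnip1-201, a partner of folliculin in energy sensing, 19 and 4, and Fyco1-202, an autophagosome transport adaptor, 40 and 9. The 2 of these 226 members over 2-fold higher in replicate 1 were Hs2st1-201 with 7 reads in replicate 2 and 13 in replicate 1 and Pygo1-201 with 8 and 13, and both counting intervals included no difference. Igfbp5-201, of a growth factor binding protein, had 34 and 48.

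Model ends bear on whether members are long as molecules. The files give no read ends for annotated transcripts. The 3′ ends of other spliced models that share a member's last junction were used in their place, a measure chosen after seeing the data. Each model has 1 end, and all its reads were counted at that end, so the ends of single reads were not measured. For the 372 members with a last exon of 4000 nt or more, 285 had such models, with 4455 reads. Of these reads, 62.9% belonged to models that end in the first 50% of the last exon and 30.2% to models that end in its last 10%. The share in the first 50% was 58.6% in replicate 2 and 69.7% in replicate 1. Where the last exon was under 1000 nt, there were 47113 model reads. Of these, 0.478% belonged to models that end in its first 50% and 99.4% to models that end in its last 10%. Myh4, with 42445 gene reads and a last exon of 259 nt, is in this class, and reads shared by several members count for each. Counted by model, 2.51% ended in the first 50%, against 71.5% on last exons of 4000 nt or more.

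**Figure D5:**
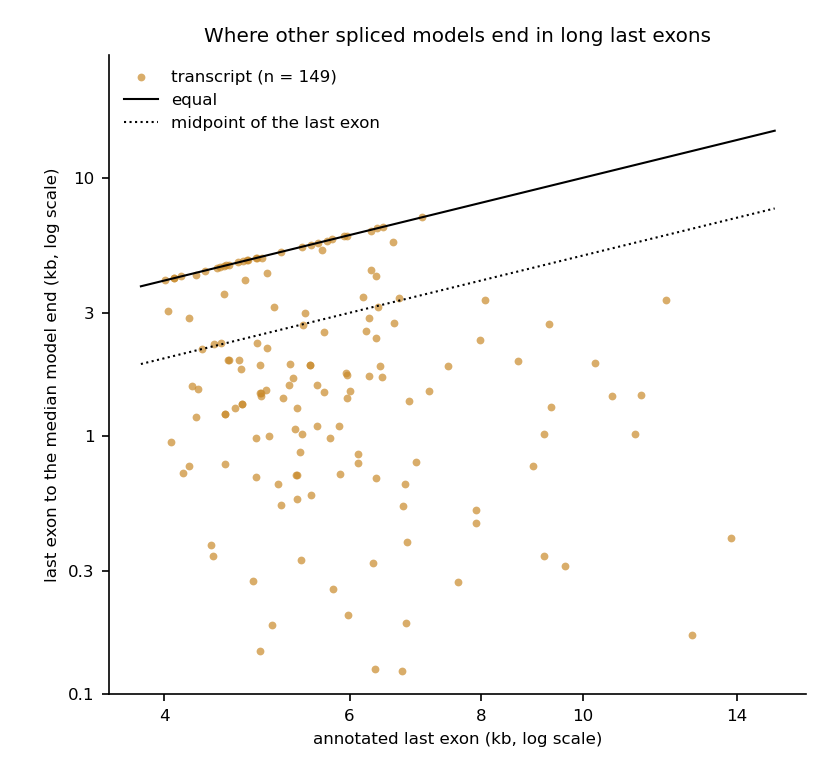
Length of the last exon as annotated (kb, log scale) against its length up to the median end of other spliced models that share the last junction (kb, log scale), for 149 members with a last exon of 4 kb or longer and 5 or more such reads. In 104 the median end lies below the dotted midpoint line, and 31 lie in the last 10%, close to the line of equal length.

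For 149 members with a long last exon and 5 or more model reads, the median annotated length was 7478 nt and the median length up to the model ends was 4041 nt. Counted to the median model end, 110 of the 149 (73.8%) came to under 6000 nt. Models of Zfand5-205 ended at a median of 1868 nt of its 6418 nt last exon, those of Ppm1a-201 at 853 of 6108 and those of Timm17a-201 at 188 of 6791. These positions lie at annotated 3′ ends of other transcripts. Over all members with a last exon of 4000 nt or more, 60.6% of the model reads belonged to models that ended at some annotated 3′ end. That share includes models that ended at the member's own annotated 3′ end. Among the 512 early ends described in the next paragraph, 152 lay at an annotated 3′ end, and their models held 1377 of 3110 reads. For Hif1an-201 (5161 of 5161 nt) and C2cd2-201 (4368 of 4368 nt) the median lay at the annotated end. Over all members with 5 or more model reads, 161 of 377 (42.7%) came to under 6000 nt. Where the complete reads of these members themselves end was not measured.

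Signals near the early ends were counted in the M21 sequence. There were 512 ends before the last 10% of a last exon of 4000 nt or more. An end shared by several members counts once for each of them, and ends a few nt apart count separately. AATAAA or ATTAAA, searched on the transcript strand and counted once per window, stood within the 50 nt before 276 of them (53.9%), against 5.46% of 48756 windows tiled over the same last exons. At least 12 A among the next 20 bases followed 71 ends (13.9%), against 1.53% of windows, and 180 ends had neither. With chromosome 18 left out, the 20 members with the most reads among those with such an end of 5 or more reads were taken. Their most read early end had a signal within 30 bases in 8, such as Ppp2ca-201 (710 of 5877 nt) and Pnpla8-201 (768 of 11208 nt). A-rich sequence followed it in 2, Usp13-201 among them, and 10 had neither by this shorter window. Of these 10, Eif4g2-213 (2200 of 5008 nt) and C2cd2-201 (1761 of 4368 nt) had a signal within 50 nt. A match of letters is a description and not evidence that a site is used.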

How the data were processed

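Total RNA of gastrocnemius was sequenced as long reads in 2 libraries of 1 group. For each library the authors deposited raw read counts by transcript model, with the model's class, length and exon number, and a file of gene models; per the labels the build is mm10, the notes deposited with each library name GENCODE M21, and the classes and identifiers are those of TALON, per the gene model files. The sources used here name neither the aligner nor its filters. Counting by junction chain places short and truncated reads in other classes.

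Members were matched by transcript identifier. Exon structure, coding length and sequences came from M21, whose lengths and exon numbers equalled the deposited ones for all 18667 annotated transcripts with reads. CPM are counts per 1000000 reads of annotated genes; log2 ratios used a prior count of 0.5, and intervals of shares are Wilson 95% intervals. Without molecular identifiers, intervals and floors reflect counting error alone. A transcript was called apart at over 2-fold with 20 or more summed reads. Scaling alternatives used edgeR 4.0.16 and DESeq2 1.42.0 in R 4.3.3; tables used pandas 2.3.3 and scipy 1.17.1. Other alternatives were count, length and gene-read minimums, read classes, thinning and leaving out each library.

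Members and gene lists were chosen with earlier results of these data known. Named transcripts are the 25 with most reads, the 10 highest in length, exons and span, the 10 at either end of share, the 8 most apart in each direction, genes with 2 or more members, leading list genes and the shortest coding members; not all are printed, and examples in the text on span, model ends and boundaries were chosen after their values were seen. A few transcripts that the rule names are not reported here.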

Additional observations from a re-analysis of the deposited data

How the results depend on the processing

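Choices of the rule moved the number of complete long transcripts most. It was 344 with a minimum of 10 reads, 1193 at 5000 nt or more, 195 at 8000 nt or more and 260 with internal exons of 3000 nt or more, and it lay between 411 and 539 when either library was left out. The median share of gene reads was 54.6% without genomic reads, 69.4% over annotated transcripts and incomplete matches only and 47.5% with no minimum of gene reads, and lay between 40.0% and 45.4% when a library was left out. The percent of long coding transcripts found was 55.8% when a single complete read sufficed, and between 41.1% and 47.1% with 1 library left out. Members over 2-fold apart numbered 220 with no minimum of reads and 14 with a minimum of 50 reads. The median log2 ratio was 0.26 with DESeq2 size factors and 0.28 with edgeR TMM factors, which moved that over all transcripts to 0.0031 and 0.019. Among model reads, 74.1% belonged to models that ended in the first 50% of a long last exon when incomplete matches alone were used. With 1 library left out this share was between 58.6% and 69.7%. These alternatives on model ends were chosen after seeing the data. The cause of these moves was not tested, other than where fewer reads or transcripts enter by construction. The 24 other values moved by less than the spread between libraries, their interval or, for counts, a set ratio; with TMM factors none of the 38 single-transcript ratios changed its 2-fold call, and 4 uncalled ones near 0 changed sign (Glo1-206, Timm17a-201, Ppm1a-201 and Rab18-205). No paired analysis was possible because the labels give a single group. Of the 662 members, 318 had fewer than 10 reads, which limits their shares and ratios.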
